A study of Mus musculus with 15 samples.

Results

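Ptprc, Cd44 and Hnrnpll were followed through antigen priming and costimulation of CD8+ T cells in vivo, at the level of the gene and of each annotated transcript. The 3 genes were taken by name, whatever their values, out of 55536 genes of the count tables whose identifiers matched the GENCODE M21 mouse annotation. Ptprc encodes CD45, Cd44 encodes the adhesion receptor CD44, and Hnrnpll encodes the RNA-binding protein hnRNPLL. The annotation gave 13 transcripts of Ptprc, 9 of Cd44 and 7 of Hnrnpll, of which 12, 4 and 7 held at least 1 count in some library. On GRCm38 all 3 lie on the minus strand, Ptprc (ENSMUSG00000026395.16) at chr1:138062861-138175708, Cd44 (ENSMUSG00000005087.17) at chr2:102811141-102901665 and Hnrnpll (ENSMUSG00000024095.15) at chr17:80029487-80062334.

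The cells carried the OT-I transgene, a T cell receptor specific for the SIINFEKL peptide of ovalbumin. CD8+ T cells from OT-I mice on a C57BL/6J background, deficient in Rag1 or Rag2, were transferred into wild-type C57BL/6J recipients. The Ag group received SIINFEKL peptide with rat IgG, and the Ag+Costim group received the peptide with the agonist antibodies anti-OX40 (against CD134) and anti-41BB (against CD137). Cells were collected from spleen and lymph nodes, on day 4 as the labels give it, and sorted. The methods text gives a somewhat shorter time. The Naive group held CD8+ T cells purified from OT-I mice without transfer or injection. Each group had 5 libraries. The sort gate for transferred cells included CD45.1, an allelic form of the Ptprc product, and which CD45 allele or Rag background each library came from was not given in the sources used here. Every recipient kept its own lymphocytes, and nothing in the labels ties a library to a single animal, so p-values measure the spread between these libraries.

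Total counts ran from 4865952 to 25280667 per library, and the libraries were read as 50-base single reads. Ag 3 was the shallowest, with 16.9% of its reads counted, against 37.4% to 53.6% in the other 14 libraries, while a count was present for 44408 genes, the most of any library. Lane 2 of the flow cell carried the 5 Ag libraries with Ag+Costim 1 to 3, and lane 3 the 5 Naive libraries with Ag+Costim 4 and 5, so Ag vs Naive has no values within a lane. The 6 CD8 T cell markers were present in every library, at a summed 4451 to 8169 CPM, the count scaled by library size after TMM normalization. In bulk samples, fewer cells of a type and less RNA per cell cannot be told apart.

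CD45 is a transmembrane tyrosine phosphatase of all nucleated blood cells, and in T cells it removes the inhibitory phosphate from Lck. Its extracellular tip is encoded by exons 4, 5 and 6, which are joined or skipped in different combinations and give the forms known as CD45RA, RB and RC when present and CD45RO when all are skipped. Naive T cells are known for the longer forms and activated and memory T cells for CD45RO. hnRNPLL is a splicing repressor that rises when T cells are activated and is known for silencing these exons. CD44 binds hyaluronan, is a standard surface marker of antigen-experienced T cells, and has its own block of variant exons, which its standard form lacks.

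The sequences of the Ptprc cassette exons are shown because every share reported for this gene rests on which of them a transcript holds. They were read 5′ to 3′ from the GENCODE M21 transcripts (GRCm38, minus strand of chromosome 1). Exon 4 lies at chr1:138122456-138122584, exon 5 at chr1:138120020-138120166, exon 6 at chr1:138117754-138117894 and exon 7 at chr1:138116954-138117025. They are coding exons of 129, 147, 141 and 72 bases, all multiples of 3, so skipping any of them keeps the reading frame. Capitals mark CACA, a CA-rich tetramer of the kind bound by hnRNP L and its relative hnRNPLL, searched on the transcript strand alone and counted with overlaps.
Ptprc exon 4: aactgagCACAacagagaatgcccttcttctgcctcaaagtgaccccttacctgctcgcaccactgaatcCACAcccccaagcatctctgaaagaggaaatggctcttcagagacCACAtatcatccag
Ptprc exon 5: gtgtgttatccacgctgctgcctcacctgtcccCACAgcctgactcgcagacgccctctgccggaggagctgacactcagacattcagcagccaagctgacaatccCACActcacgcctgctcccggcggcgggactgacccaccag
Ptprc exon 6: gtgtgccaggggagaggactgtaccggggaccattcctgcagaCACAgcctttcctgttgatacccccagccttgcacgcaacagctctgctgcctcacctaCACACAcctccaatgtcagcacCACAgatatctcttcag
Ptprc exon 7: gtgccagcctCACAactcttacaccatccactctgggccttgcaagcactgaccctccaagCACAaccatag

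CACA occurred 3 times in exon 4, 2 times in exon 5, 4 times in exon 6 and 2 times in exon 7. Of 97037 internal coding exons of 70 to 150 bases in the annotation, 40.2% held it at least once, so its presence is a description of these letters and not a binding site.

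The transcripts differ at the join that follows exon 3, shown here with the last bases of exon 3 in lower case and the first bases of the next exon in capitals. Ptprc-207 joins exon 3 to exon 4 and holds exons 4, 5, 6 and 7. Ptprc-213, an annotated fragment whose end was not found, joins exon 3 to exon 5 and holds exons 5 and 7. Ptprc-203 joins exon 3 to exon 7 and so lacks exons 4 to 6, the arrangement of CD45RO. Ptprc-204 joins exon 3 directly to exon 8 and lacks all 4 cassette exons.
Ptprc-207, exon 3 to 4: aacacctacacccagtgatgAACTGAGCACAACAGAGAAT
Ptprc-213, exon 3 to 5: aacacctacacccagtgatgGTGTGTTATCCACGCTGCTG
Ptprc-203, exon 3 to 7: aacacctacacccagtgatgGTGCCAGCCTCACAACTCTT
Ptprc-204, exon 3 to 8: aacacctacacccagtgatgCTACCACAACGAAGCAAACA

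No full-length model of the annotation holds exon 5 without exons 4 and 6, so a CD45RB form with that exon alone had no full-length transcript to be counted on. Since exons 4 and 6 were held by Ptprc-207 alone among the counted coding models, their shares are 1 and the same number, and the share with exon 5 is likewise the share with any of exons 4 to 6.

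**Figure D1:**
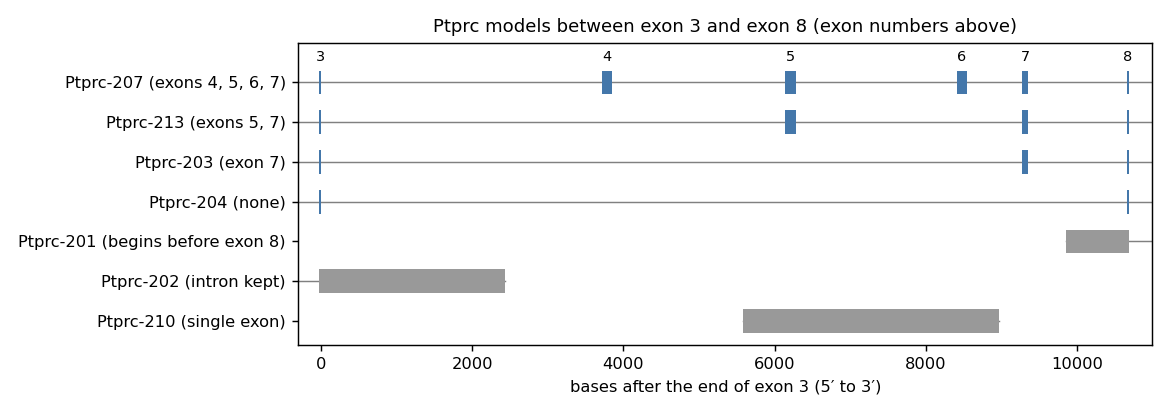
Exons of 7 Ptprc models between exon 3 and exon 8, by distance in bases from the end of exon 3 (blue, protein-coding models; grey, models annotated as retained intron; lines, introns). The 4 coding models differ in exons 4 to 7 alone within this window, while Ptprc-201 begins just before exon 8 and cannot report on any of these exons.

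Ptprc was the most abundant of the 3 genes. On a per-length scale (TPM, the counts divided by transcript length and then scaled by their sum), its level was 382.7 to 1202 in the 15 libraries, against 21.8 to 79.1 for Hnrnpll and 10.6 to 43.3 for Cd44. The Ptprc range stood apart from both, while those of Hnrnpll and Cd44 overlapped. Levels within a gene are given below in CPM.

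Ptprc expression was 2348, 1920, 2655, 2449 and 1969 CPM in Naive 1 to 5 (mean 2268 ± 316, SD, n = 5). It was 1945, 1716, 1583, 2075 and 1276 CPM in Ag 1 to 5 (1719 ± 313), and 1884, 1830, 1900, 1630 and 1908 CPM in Ag+Costim 1 to 5 (1830 ± 116). The highest level was in Naive, all Ag+Costim libraries lay under all Naive libraries, and Ag overlapped both. In Ag vs Naive the log2 fold change was -0.40 (SE 0.14, FDR 0.0869, edgeR quasi-likelihood test), in Ag+Costim vs Naive -0.31 (SE 0.14, FDR 0.0772) and in Ag+Costim vs Ag 0.09 (SE 0.14, FDR 0.690). None of these passed the threshold of FDR below 0.05. Of all 17366 genes tested, 3.66% passed as lower in Ag vs Naive, 23.6% as lower in Ag+Costim vs Naive, and 0.0288% as higher in Ag+Costim vs Ag. Groups without overlap in CPM, as for Ptprc in Ag+Costim vs Naive, were found for 45% of genes in that comparison. The order Naive above Ag+Costim above Ag is an order of means, and Ag+Costim and Ag did not differ beyond their spread. Scaling by library totals alone, in the same test, turned the Ag+Costim vs Ag difference to -0.0027 and brought Ag+Costim vs Naive to -0.47 (FDR 0.0382), and a fit of the 10 libraries of Ag+Costim and Naive alone also called the latter (-0.37, FDR 0.0144). The same difference was smaller without Ag+Costim 4 (-0.18, FDR 0.436) and without the filter on low counts (-0.15, FDR 0.724). Ag vs Naive passed without Naive 5 (-0.44, FDR 0.0410), without Ag 4 (-0.47, FDR 0.0464) and in DESeq2 (-0.45, FDR 0.0356).

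Cd44 expression was 24.3, 41.8, 19.6, 20.98 and 71.1 CPM in Naive 1 to 5 (35.6 ± 21.8, SD, n = 5). In Ag 1 to 5 it was 67.0, 104, 69.0, 74.7 and 58.6 CPM (74.6 ± 17.2), and in Ag+Costim 1 to 5 it was 68.7, 62.2, 63.5, 51.7 and 70.3 CPM (63.3 ± 7.30). Naive 1 to 4 lay under every transferred library, and Naive 5 lay among them, at the level of the Ag+Costim maximum. The log2 fold change was 1.07 in Ag vs Naive (SE 0.31, FDR 0.0511, edgeR), just short of the threshold, and 0.83 in Ag+Costim vs Naive (SE 0.31, FDR 0.0409), which passed. The Ag+Costim vs Ag value was -0.24 (SE 0.30, FDR 0.629), with a 95% interval of -0.90 to 0.43. The background of genes called higher was 3.05% in Ag vs Naive and 21% in Ag+Costim vs Naive, and 0.00576% of genes were called lower in Ag+Costim vs Ag. DESeq2 called Cd44 higher in Ag vs Naive (1.04, FDR 0.00994) and in Ag+Costim vs Naive (0.82, FDR 0.0235), and with the replicate block edgeR also called the former (1.21, FDR 0.0327).

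The Cd44 calls depended on single libraries and on the settings of the fit. Without Naive 5, Cd44 was higher in Ag by 1.49 (log2, FDR 0.00149, edgeR) and in Ag+Costim by 1.26 (FDR 0.0012), while leaving out any other Naive library raised the FDR of Ag+Costim vs Naive to between 0.0545 and 0.0978. The call was also lost without Ag+Costim 1, 2, 3 or 5 (FDR 0.0650 to 0.0790), with library totals (0.70, FDR 0.0612), in a fit of the 10 libraries compared (0.78, FDR 0.0575), with lane as a term (0.78, FDR 0.156) and within lane 3 (0.79, FDR 0.203, 2 Ag+Costim and 5 Naive libraries). Within lane 2, Ag+Costim vs Ag was -0.19 (FDR 0.727). With lane as a term, Ag vs Naive was 0.98 for Cd44, 0.91 for Hnrnpll and -0.48 for Ptprc, each at FDR 0.626. That fit takes its lane effect from the Ag+Costim libraries alone, the only group read in both lanes. Naive 5 also held the highest summed level of 7 myeloid markers of the Naive group, 188 CPM against 13.1 to 92.3 CPM in the other 4. These markers summed to 67.0 to 142 CPM in Ag and 86.6 to 163 CPM in Ag+Costim. The part of myeloid cells in the Cd44 levels was not tested.

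Hnrnpll expression was 38.7, 68.2, 44.9, 36.3 and 117.9 CPM in Naive 1 to 5 (61.2 ± 34.1, SD, n = 5). It was 63.4, 110, 108, 86.1 and 129 CPM in Ag 1 to 5 (99.4 ± 25.2) and 134, 130, 138, 155 and 155 CPM in Ag+Costim 1 to 5 (142 ± 11.8). The means followed the order Naive, Ag, Ag+Costim. All 5 Ag+Costim libraries were above all Naive libraries, and also above all Ag libraries, in the latter case by a narrow margin of 129.8 against 129.1 CPM. Ag and Naive overlapped through Naive 2 and Naive 5.

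Hnrnpll was higher in Ag+Costim than in Naive by 1.22 on the log2 scale (SE 0.29, FDR 0.00893, edgeR), a 2.32-fold difference. The call was kept in all 10 fits that left out 1 library (FDR 0.000301 to 0.0283) and within lane 3 (1.35, FDR 0.0429), and was lost with lane as a term (1.34, FDR 0.0511). In Ag vs Naive the log2 fold change was 0.70 (SE 0.29, FDR 0.133), and in Ag+Costim vs Ag 0.52 (SE 0.29, FDR 0.263), neither of which passed. In Ag+Costim vs Naive the groups did not overlap for 45% of all genes, and 21% were called higher. Groups did not overlap for 6.33% of all genes in Ag+Costim vs Ag and for 3.85% in Ag vs Naive, where none of the 3 genes had separate groups. Without Naive 5, Ag vs Naive reached 1.09 (FDR 0.00558). Within lane 2, Ag+Costim vs Ag was 0.44 (FDR 0.628).

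**Figure D2:**
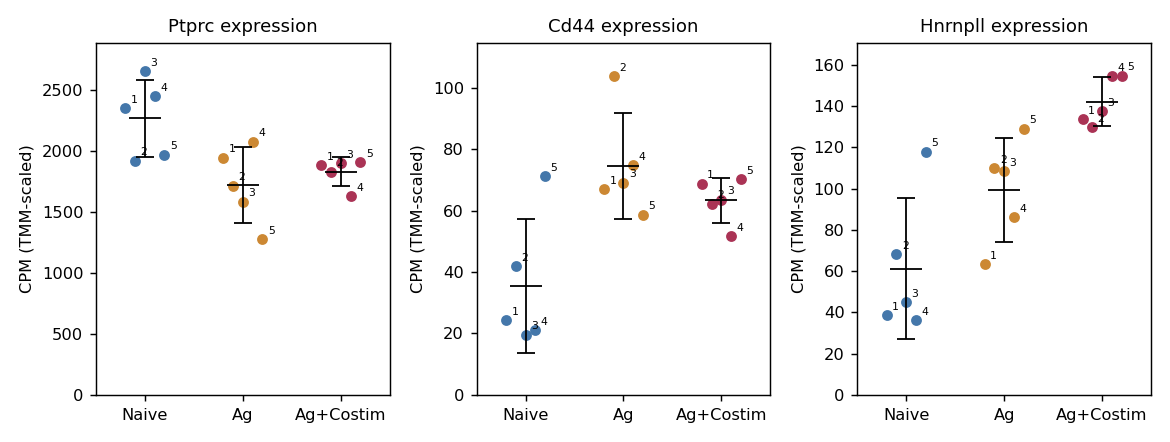
CPM of Ptprc, Cd44 and Hnrnpll (y axes start at 0) in the Naive, Ag and Ag+Costim groups. Points are libraries with their replicate number, and bars are the mean ± SD (n = 5). Hnrnpll in Ag+Costim stands above all other libraries, and Naive 5 stands apart from Naive 1 to 4 in both Cd44 and Hnrnpll.

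Transcripts with the variable exons held a smaller share of Ptprc counts in antigen-primed than in naive cells, and ranged widely among costimulated libraries. Over all libraries, 39.3% of Ptprc counts were on Ptprc-201, a retained-intron model that begins before exon 8, 24.5% on Ptprc-207, 16.5% on Ptprc-203, 7.25% on Ptprc-204 and 3.11% on Ptprc-213. The share of variable exons was therefore taken over the counts of the 4 coding models Ptprc-207, Ptprc-213, Ptprc-203 and Ptprc-204, which came to 4444 counts in Ag 3 and 9898 to 38435 in the other libraries. The counts are StringTie's estimates from short single reads, and the part of that estimate in these shares was not tested. Ptprc-213 is annotated at 702 bases and the other coding models at 4611 to 5074, so these are shares of counts and not of molecules. Dividing counts by transcript length turned no direction and changed no call among the 18 share comparisons, but the size of the differences depends on this choice.

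Transcripts with any of exons 4 to 6 held 81.7%, 58.4%, 75.6%, 65.6% and 68.5% of these counts in Naive 1 to 5 (69.97% ± 9.001, SD, n = 5). In Ag 1 to 5 they held 26.7%, 10.2%, 11.3%, 52.8% and 32.3% (26.7% ± 17.5). In Ag+Costim 1 to 5 they held 75.0%, 69.9%, 7.53%, 25.3% and 66.6% (48.9% ± 30.4). All Ag libraries lay under all Naive libraries, with Ag 4 the nearest. The Ag+Costim libraries fell apart, with 1, 2 and 5 inside the Naive range and 3 and 4 inside or under the Ag range. Wilson 95% intervals of a single library were narrow beside this spread, from 10.4% to 12.2% in the shallow Ag 3 for example, and cover counting error only.

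The share with variable exons was 43.3 percentage points lower in Ag than in Naive (95% interval -64.3 to -22.3, two-sided exact permutation test p = 0.00794, the smallest that 5 against 5 libraries allow). Adjusted over the 18 share comparisons made, p was 0.0357 (exact test, Benjamini-Hochberg adjustment). Over the 12 left when exact repeats of the same counts were dropped, it was 0.0476 (same test and adjustment). Those 12 still hold the Ptprc-207 share, whose counts are part of this share, at the same exact p of 0.00794. Both adjusted values thus lean on overlapping comparisons. Whether the difference would pass with this share counted only once was not tested. The share was 22.2 points higher in Ag+Costim than in Ag (interval -19.1 to 58.6, exact p = 0.206, adjusted 0.388) and 21.1 points lower in Ag+Costim than in Naive (interval -58.1 to 8.7, exact p = 0.254, adjusted 0.388). Neither difference passed the test, and both intervals include 0. The 3 comparisons share their groups and are not independent of each other.

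Against all counts of the gene in place of the 4 models, the Ag vs Naive difference was -21.7 points, with the same p. Leaving out 1 library gave -49.8 to -39.2 points. For Ag+Costim vs Naive it gave -27.6 to -10.8 points, with the smallest difference without Ag+Costim 3, and for Ag+Costim vs Ag 15.7 to 32.5 points. The adjusted p stayed at 0.0357 in the exact test without any one Ag library and rose to 0.0714 without any one Naive library. Leaving out both Ag 3 and Naive 5, a choice made after the data were seen, gave -39.8 points (exact p = 0.0286, adjusted 0.129). That p is the smallest the remaining libraries allow, so this setting could not pass after adjustment, and the groups still did not overlap. Within lane 2 the Ag+Costim vs Ag difference was 24.1 points, and within lane 3 the Ag+Costim vs Naive difference was -24.0 points (exact test, adjusted p = 0.388 and 0.371). With so few libraries in a lane, neither could have passed after adjustment, whatever the values.

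The share of Ptprc-207, the only counted coding model with exons 4 and 6, followed the same course. It is no second result, since its counts are part of the share above, over the same denominator. A form with exon 5 alone had no full-length model, so this is a share of Ptprc-207 and not a direct measure of exon 4 or 6. The share was 75.8%, 50.9%, 67.5%, 58.7% and 63.6% in Naive 1 to 5 (63.3% ± 9.34, n = 5). It was 20.6%, 4.38%, 5.33%, 46.3% and 26.9% in Ag 1 to 5 (20.7% ± 17.3), and 69.9%, 65.3%, 3.61%, 17.6% and 62.2% in Ag+Costim 1 to 5 (43.7% ± 30.8). Ag and Naive again did not overlap, with a difference of -42.6 points (interval -62.3 to -21.3, exact p = 0.00794, adjusted 0.0357), while the Ag+Costim libraries again spread over the ranges of both.

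Exon 7 was present in nearly all coding counts of Naive libraries, from 97.0% to 99.0%, in 3 Ag libraries at 93.5% to 97.0% and in 4 Ag+Costim libraries at 87.6% to 97.9%. It stood at 33.5% in Ag 2, 50.5% in Ag 3 and 29.6% in Ag+Costim 3. In these 3 libraries the counts without exons 4 to 6 were therefore not mainly those of the CD45RO arrangement with exon 7 but of Ptprc-204. This share was added after the data were seen and was not tested.

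**Figure D3:**
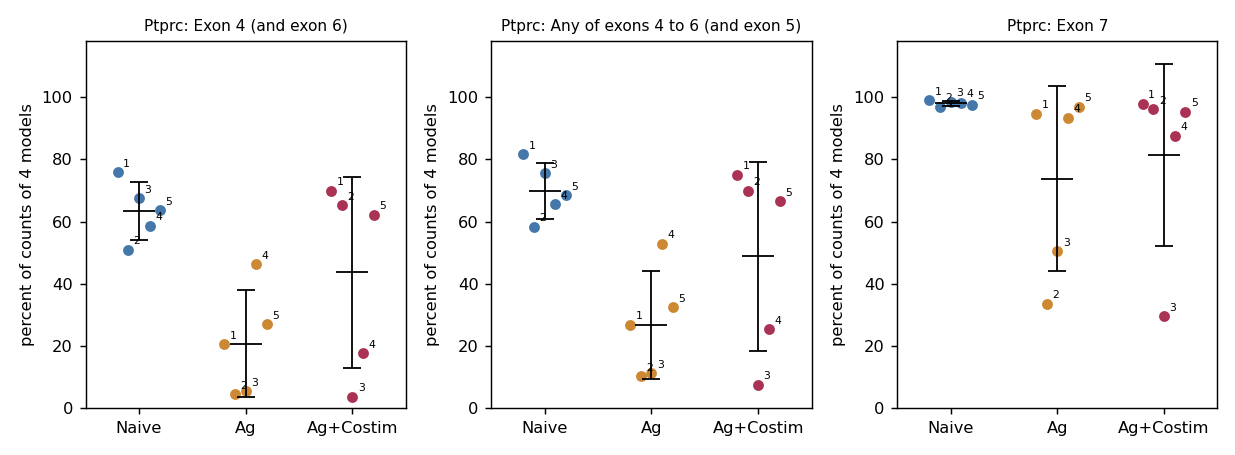
Percent of the counts of Ptprc-203, Ptprc-204, Ptprc-207 and Ptprc-213 held by transcripts with exon 4 (and 6), with any of exons 4 to 6, and with exon 7, by group. Points are libraries with their replicate number, and bars are the mean ± SD (n = 5), which runs past 100% for exon 7. Ag lies under Naive for exons 4 to 6, Ag+Costim is spread over both, and Ag 2, Ag 3 and Ag+Costim 3 stand low for exon 7.

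Ptprc-204 showed the widest range of any coding Ptprc model. It held 0.494%, 1.24%, 0.735%, 0.732% and 1.31% of all Ptprc counts in Naive 1 to 5. In Ag 1 to 5 it held 2.36%, 39.1%, 30.3%, 2.61% and 1.71%, and in Ag+Costim 1 to 5 1.03%, 2.11%, 49.6%, 4.88% and 2.42%. Every Ag library exceeded every Naive library, most by a small amount and Ag 2 and Ag 3 by far, and in Ag+Costim 1 library carried most of the group's mean. The part of StringTie's division of reads in this spread was not tested. Shares without overlap between groups were found for 1.28% of the 25932 transcripts tested in Ag vs Naive, 14.1% in Ag+Costim vs Naive and 2.21% in Ag+Costim vs Ag.

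In the test of transcript usage over 7501 genes (edgeR diffSpliceDGE, a gene called at FDR below 0.05 with a transcript at FDR below 0.05 whose mean share moved by at least 0.1), Ptprc was called in Ag vs Naive (gene FDR 5.68e-06), where 0.547% of genes were called. It was also called in Ag+Costim vs Naive (gene FDR 2.01e-05), where 1.01% were. It was not called in Ag+Costim vs Ag (gene FDR 1.00), where 0.933% were. In this test both calls came from Ptprc-204, whose mean share of all Ptprc counts was 14.3 points higher in Ag than in Naive (transcript FDR 1.79e-06) and 11.1 points higher in Ag+Costim than in Naive (transcript FDR 7.87e-06). Ptprc-207 differed by -21.6 points in Ag vs Naive and by -8.59 points in Ag+Costim vs Naive, and did not pass this test (transcript FDR 0.204 and 1.00).

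Single libraries decided these calls. In Ag vs Naive the call was lost without Ag 2, where no transcript met both limits although the gene FDR was 0.00214 (edgeR). In Ag+Costim vs Naive it was lost without Ag+Costim 3 (gene FDR 0.713) and, with the replicate number as a term, the gene FDR was 0.0773. With limma's diffSplice the gene was called in the same 2 comparisons (gene FDR 0.0104 and 0.0185), and there Ptprc-207 did pass in Ag vs Naive (-21.6 points, transcript FDR 0.00529).

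Ptprc-203 held 13.5% ± 2.95 of Ptprc counts in Naive, against 24.2% ± 9.53 in Ag and 16.3% ± 4.89 in Ag+Costim (SD, n = 5), and was not called in any comparison (lowest transcript FDR 1.00, edgeR). The 7 retained-intron models other than Ptprc-201 held 12.9% ± 3.94, 7.70% ± 4.21 and 5.76% ± 1.75 of Ptprc counts in Naive, Ag and Ag+Costim. All 5 Ag+Costim libraries, at 3.88% to 8.10%, lay under the Naive libraries, at 8.29% to 17.4% (14.1% of single transcripts had separate groups there, in either direction), while Ag, at 2.77% to 12.4%, overlapped both. The largest of them, Ptprc-208, a single-exon model near the gene's start, held 7.64% ± 2.78 in Naive, against 4.20% ± 2.47 in Ag and 3.36% ± 1.20 in Ag+Costim, with transcript FDR 0.539 or above (edgeR). The 1 gene within Ptprc on its strand, A130071D04Rik, shared 0 exon bases with it.

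**Figure D4:**
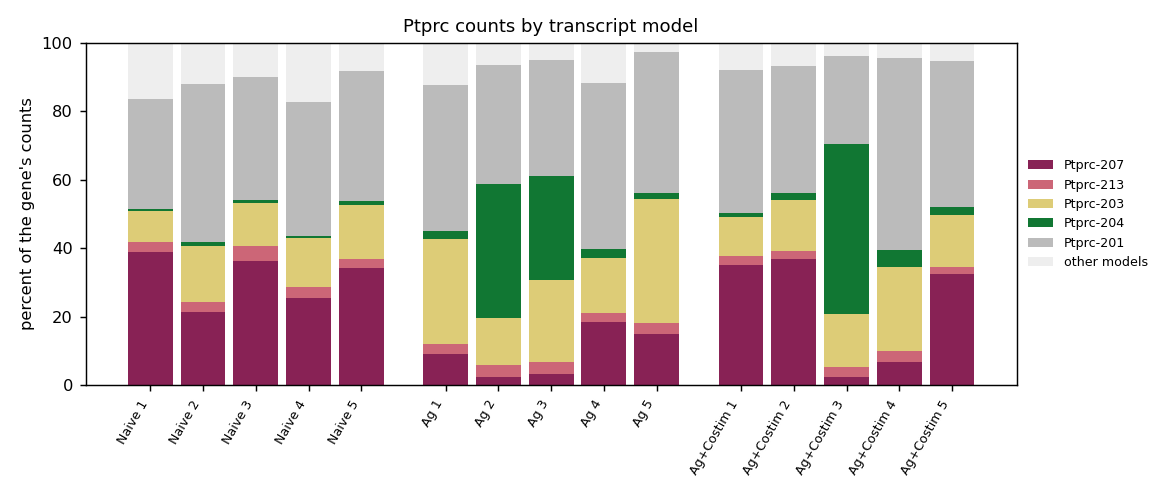
Percent of all Ptprc counts on each transcript model, 1 bar per library. Ptprc-207 (all 4 cassette exons) is widest in the Naive libraries and in Ag+Costim 1, 2 and 5, and Ptprc-204 (no cassette exon) is wide in Ag 2, Ag 3 and Ag+Costim 3 alone.

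B cells include all 3 variable exons of Ptprc, so their markers bear on these shares. The summed level of 7 B cell markers was 21.9 to 32.2 CPM in Naive, 16.7 to 398 CPM in Ag and 14.5 to 33.8 CPM in Ag+Costim. Ag 3 had 398, Ag 4 185 and Ag 1 146 CPM, and Ag 2 and Ag 5 had 16.7 and 21.3 CPM with 3 and 1 of the markers at 0. The Ag library with the highest share of variable exons, Ag 4, was thus among those with raised B cell markers, whereas Ag 3 had the highest marker level and one of the lowest shares. Ag 2 and Ag 5, at or under the Naive marker level, had 10.2% and 32.3% variable exons, under all Naive libraries. The 4 erythroid markers summed to 705 CPM in Ag 3 and to 2.44 to 82.2 CPM in the other libraries, and the 4 CD4 T cell markers to at most 34.4 CPM in any library. The part of these cells in the Ptprc shares was not tested.

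Cd44 was counted on 4 of its 9 models. The variant model (ENSMUST00000005218.14) holds all 10 variant exons (exons 6 to 15) and the standard model (ENSMUST00000099673.8) holds none of them, the arrangement of the standard form. Their joins after exon 5 are shown with the first bases of the next exon in capitals. They lie on the minus strand of chromosome 2 and were read from the same source, with variant exon 6 at chr2:102848657-102848782.
Cd44 variant model, exon 5 to 6: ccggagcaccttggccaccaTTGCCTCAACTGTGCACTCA
Cd44 standard model, exon 5 to 16: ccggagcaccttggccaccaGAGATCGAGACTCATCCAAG

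Transcripts with variant exons held 25.9%, 30.1%, 25.9%, 33.6% and 22.1% of coding Cd44 counts in Naive 1 to 5 (27.5% ± 4.41, SD, n = 5). They held 39.7%, 26.2%, 27.4%, 31.9% and 30.8% in Ag 1 to 5 (31.2% ± 5.30), and 32.5%, 29.8%, 31.1%, 28.8% and 30.9% in Ag+Costim 1 to 5 (30.6% ± 1.39). The 3 groups overlapped, and over all libraries the standard model held 69.35% of Cd44 counts. The differences were 3.71 points in Ag vs Naive (interval -2.8 to 11.2, exact p = 0.278), -0.60 in Ag+Costim vs Ag (interval -6.5 to 4.6, exact p = 0.889) and 3.10 in Ag+Costim vs Naive (interval -1.9 to 7.6, exact p = 0.175). Adjusted p was 0.388 or above in the exact test, within lane 2 the Ag+Costim vs Ag difference was -0.10 points, and within lane 3 the Ag+Costim vs Naive difference was 2.34 points. Changes of more than 11.2 points lay outside all 3 intervals.

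What these Cd44 shares can separate is limited by the models that took counts. Another 5 coding models, with 1 to 7 variant exons, were at 0 in all 15 libraries. A model with exons 10, 11, 13, 14 and 15 (ENSMUST00000111194.7) was counted in Naive 3 alone, with 131 counts, where the variant model had 2. StringTie divided 50-base single reads among these models, and the part of that step in this exchange was not tested. The variant model ends in a last exon of 3197 bases and the standard model in one of 1791 bases, so a longer end and the variant exons cannot be told apart. The variant model is 5614 bases long in all and the standard model 2848, so these are shares of counts and not of molecules. Cd44 was not called in the usage test in any comparison (lowest gene FDR 1.00, edgeR), and its counts per library were few, from 302 to 1504. The CACA tetramer searched in the Ptprc exons was found in 6 of the 10 variant exons, 3 times in exon 6, for example, and not in exons 7, 8, 11 and 13.

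Hnrnpll counts were split between a model annotated for nonsense-mediated decay and coding models. Hnrnpll-203 carries an additional exon of 83 bases at chr17:80044940-80045022 (GRCm38, minus strand), which is not a multiple of 3, and is the only model with that exon. Hnrnpll-205 joins the same upstream exon directly to the next coding exon. The exon and both joins are shown because the division of counts between these models set the coding share of the gene.
Hnrnpll-203 additional exon: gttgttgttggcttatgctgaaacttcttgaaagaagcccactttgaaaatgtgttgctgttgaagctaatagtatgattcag
Hnrnpll-203, join into it: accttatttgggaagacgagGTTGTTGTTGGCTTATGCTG
Hnrnpll-205, join past it: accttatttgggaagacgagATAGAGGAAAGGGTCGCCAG

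The protein-coding models Hnrnpll-205 and Hnrnpll-201 together held 15.6%, 89.7%, 10.5%, 11.1% and 11.6% of Hnrnpll counts in Naive 1 to 5 (27.7% ± 34.7, SD, n = 5). They held 28.3%, 12.3%, 74.1%, 12.9% and 10.8% in Ag 1 to 5 (27.7% ± 26.9), and 8.72%, 49.4%, 10.2%, 92.4% and 50.04% in Ag+Costim 1 to 5 (42.2% ± 34.6). Every group held libraries under 13% and libraries far above it, and the groups overlapped over nearly their whole range. Differences between groups were -0.02 points in Ag vs Naive (interval -40.8 to 40.1, exact p = 1.00), 14.5 in Ag+Costim vs Ag (interval -32.9 to 59.3, exact p = 0.516) and 14.5 in Ag+Costim vs Naive (interval -40.6 to 60.1, exact p = 0.627). Within lane 2 the Ag+Costim vs Ag difference was -4.88 points and within lane 3 the Ag+Costim vs Naive difference was 43.5 points (exact test, adjusted p = 0.924 and 0.343). Here too the libraries of a lane were too few to pass after adjustment, whatever the values. Leaving out Ag+Costim 4 brought the differences to 1.94 points in Ag+Costim vs Ag and 1.92 points in Ag+Costim vs Naive, and over all libraries left out in turn they ran up to 26.1 and 29.98 points.

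As counted, this split was close to all or nothing. The counts are StringTie's estimates from 50-base single reads, and the part of that estimate in the split was not tested. Hnrnpll-205 was at 0 in 9 of the 15 libraries, among them Ag+Costim 1 with 2019 Hnrnpll counts, where a count of 0 has a Wilson 95% upper limit of 0.190%. It held 86.1% in Ag+Costim 4, 82.5% in Naive 2 and 64.5% in Ag 3, and in these libraries Hnrnpll-203 held 0.168%, 0.462% and 0.803%. In between were Ag 1, Ag+Costim 2 and Ag+Costim 5, with 20.1%, 42.0% and 43.5% on Hnrnpll-205. Hnrnpll-203 has a last exon of 704 bases and Hnrnpll-205 one of 1054, so the models differ in their ends as well as in the additional exon. Hnrnpll was not called in the usage test in any comparison (lowest gene FDR 1.00, edgeR). Of the alternatives run, the one without Naive 2 called it, in Ag vs Naive (gene FDR 0.0107) and Ag+Costim vs Naive (gene FDR 0.00378), and Hnrnpll-205 was at 0 in each of the 4 remaining Naive libraries.

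Hnrnpll-201, the other coding model, was at 11.2% ± 3.00 of Hnrnpll counts in Naive, against 10.7% ± 1.93 in Ag and 7.83% ± 1.64 in Ag+Costim. The 4 retained-intron models of the gene held 15.4% ± 4.52 in Naive, against 14.1% ± 7.01 in Ag and 6.49% ± 2.46 in Ag+Costim. All 5 Ag+Costim libraries, at 2.88% to 8.74%, lay under the Naive range of 9.83% to 21.3%, where groups were separate, in either direction, for 14.1% of single transcripts, and Ag, at 6.84% to 25.1%, overlapped both. The retained-intron shares of both genes were added after the data were seen and were not tested.

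**Figure D5:**
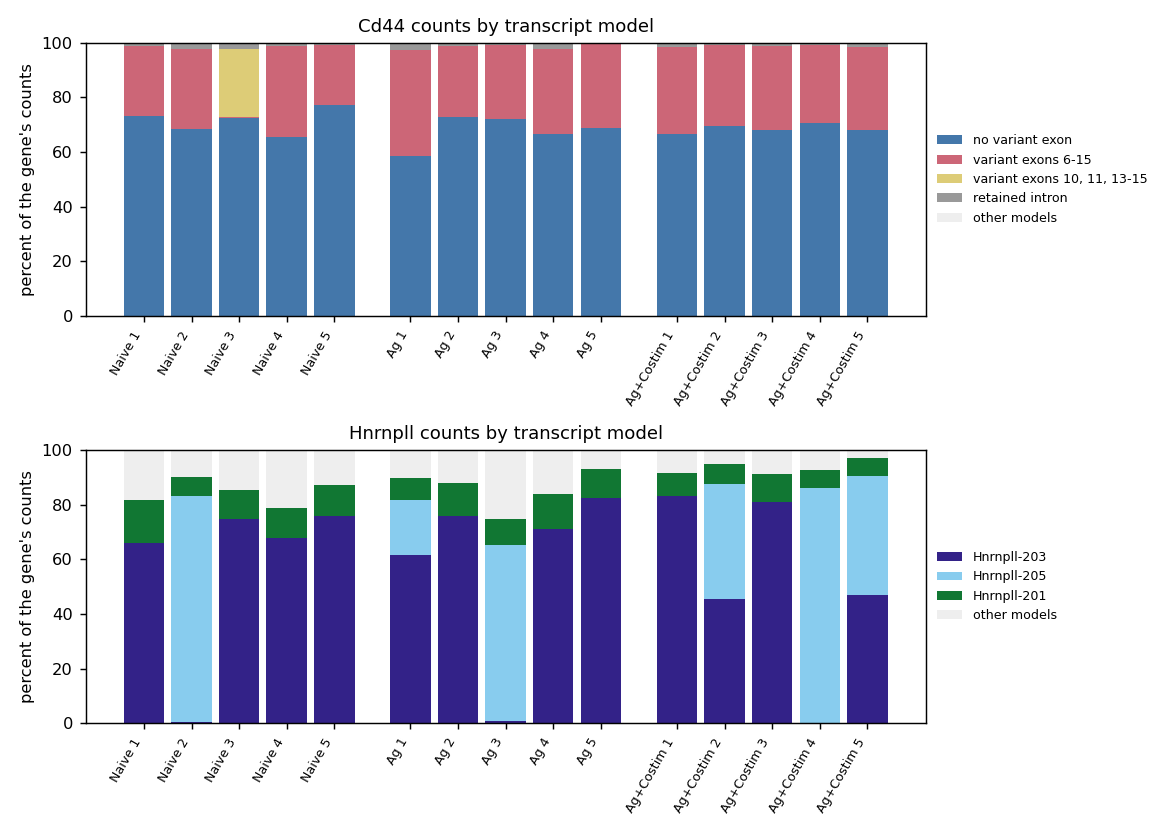
Percent of all counts of Cd44 (above) and Hnrnpll (below) on each transcript model, 1 bar per library. Cd44 is divided alike in nearly all libraries, Naive 3 having the model with variant exons 10, 11 and 13 to 15 in place of the model with all of them, while Hnrnpll-205 takes most counts in Naive 2, Ag 3 and Ag+Costim 4 and none in 9 libraries.

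Of the other known regulators of CD45 and CD44 variable exons, 8 of 17 tested were higher in Ag+Costim than in Naive, where 21% of all genes were called higher and 23.6% lower. The list held 18 genes, among them Hnrnpl, Ptbp1, Sfpq and serine/arginine-rich factors, and Esrp1 was too low to be tested. In Ag vs Naive, where 3.05% of all genes were called higher and 3.66% lower, 0 were called higher and 2 lower (edgeR, FDR below 0.05), Thrap3, a partner of Sfpq in CD45 splicing, at -0.50 (log2, FDR 0.0188) and the splicing regulator Mbnl1 at -0.59 (FDR 0.0427). In Ag+Costim vs Naive 8 were called higher and 1 lower, with Tra2b, a splicing activator, at 1.04 (FDR 0.00162), the chromatin remodeller Smarca2 at -1.69 (FDR 0.00374) and Celf2 at 0.40 (FDR 0.00655). The median log2 fold change of the list was -0.09, 0.46 and 0.40 in Ag vs Naive, Ag+Costim vs Ag and Ag+Costim vs Naive, beside 0.08, -0.10 and -0.08 over all genes tested.

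In Ag+Costim vs Ag, edgeR called 0 of the 17, although 11 were higher and 1 lower at an unadjusted p below 0.05, and DESeq2 called 10 higher and 1 lower. Over all 17366 genes, 4647 had an unadjusted p below 0.05 in this comparison and DESeq2 called 5582. The lowest FDR values were those of Tra2b (0.91, FDR 0.0594), Thrap3 (0.62, FDR 0.0642) and Hnrnpm (0.58, FDR 0.0807). Without Ag 3 edgeR called 2 higher in this comparison and, in Ag vs Naive, 1 lower. Without Naive 5 the counts were 1 higher and 3 lower in Ag vs Naive and 11 higher and 1 lower in Ag+Costim vs Naive. Over all genes, leaving out 1 library gave 255 to 3871 called in Ag vs Naive and 3892 to 9164 in Ag+Costim vs Naive. In Ag+Costim vs Ag it gave 0 to 3573. The shares of all genes quoted for the full fit are no background for these counts, which are no result about the list.

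Of 10 genes for CD45 partners and the control of Src family kinases, all tested, edgeR called 1 higher and 1 lower in Ag vs Naive, beside 3.05% and 3.66% of all genes. Lyn, a Src family kinase of B and myeloid cells, was higher by 2.08 on the log2 scale (FDR 0.0352) and Pag1, an adaptor that recruits Csk to the membrane, lower, at -1.07 (FDR 0.0258). B cell markers were raised in Ag 1, Ag 3 and Ag 4. Without Ag 3 no member of this list, or of any other list, was called higher in Ag vs Naive. The part of B cells in the Lyn level was not tested. Without Naive 5, 2 were called higher and 1 lower in Ag vs Naive, and 3 higher and 1 lower in Ag+Costim vs Naive. The total of genes called also moved when a library was left out, so these counts are no result about the list. Against Naive, Ag+Costim had 1 called higher, the phosphatase Ptpn22 at 0.25 (FDR 0.0428), and 1 lower, Pag1 at -1.16 (FDR 0.00642), beside 21% and 23.6% of all genes. Between Ag+Costim and Ag edgeR and DESeq2 called 0, with 0 higher and 1 lower at an unadjusted p below 0.05. The substrate Lck was at means of 1503 CPM (Naive), 1611 CPM (Ag) and 1592 CPM (Ag+Costim), and was not called. The list's median was 0.13, -0.01 and 0.25 in the order of comparisons above.

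CD44 partners, enzymes that make its ligand and proteases that shed it formed a list of 15, of which 11 were tested and Has1, Has2, Has3 and Spp1 were too low. In Ag vs Naive edgeR called 1 higher and 0 lower, beside 3.05% and 3.66% of all genes. It was Cd74 (2.77, FDR 0.0305), the invariant chain of antigen-presenting cells and a CD44 partner. Without Ag 3, the library with the highest B cell markers, 0 were called. No member of any list, the T cell surface markers included, was called higher in Ag vs Naive without that library. The part of B cells in the Cd74 level was not tested. Against Naive, Ag+Costim had 3 called higher, the protease Adam17 (0.46, FDR 0.0169), the hyaluronan receptor Hmmr (2.16, FDR 0.0409) and the membrane linker Rdx (0.47, FDR 0.0463), and 0 lower. That is near the 21% of all genes called higher, so it is no result about the list. In Ag+Costim vs Ag edgeR called 0, with 3 higher and 2 lower at an unadjusted p below 0.05, and DESeq2 called 3 higher and 2 lower. The median was -0.01, 0.30 and 0.12. Without Naive 5, 3 were called higher in Ag vs Naive. Counts with a library left out are again no result about the list, since the total of genes called moved with them.

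Surface markers of naive, activated and memory T cells gave the setting of the Cd44 values. Of 12 genes tested, 2 were called higher and 2 lower in Ag vs Naive (edgeR; 3.05% and 3.66% of all genes), with Il7r, the interleukin-7 receptor of naive and memory cells, at -1.996 (FDR 0.00874), the early activation marker Cd69 at -1.63 (FDR 0.0188) and the chemokine receptor Cxcr3 at 1.55 (FDR 0.0451). Against Naive, 3 were called higher in Ag+Costim and 5 lower, with Il7r at -2.82 (FDR 0.000954), Cd69 at -2.18 (FDR 0.00235) and Ccr7, the lymph node homing receptor, at -1.77 (FDR 0.00297). Of all genes 21% were called higher and 23.6% lower there, so the count of higher members was near the background. Between Ag+Costim and Ag edgeR called 0, with 0 higher and 4 lower at an unadjusted p below 0.05, and DESeq2 called 0 higher and 2 lower. The median was 0.31, -0.11 and 0.20. Without Ag 3 the counts in Ag vs Naive were 0 higher and 2 lower, and without Naive 5 they were 4 higher and 3 lower, with 5 higher and 5 lower in Ag+Costim vs Naive. Here too the total of genes called moved when a library was left out.

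The genes whose pattern over the 15 libraries was most like that of each member were named by the root mean square difference of their centred log2 CPM, among 11337 genes with at least 5 CPM on average. Nearest to Ptprc were Limd1 (0.10), Elmo1 (0.10) and Sf3b1 (0.10), against a standard deviation of 0.26 for Ptprc itself. Nearest to Cd44 were Slc25a33 (0.19), Tmem154 (0.23) and Pqlc3 (0.23), with 0.72 for Cd44. Nearest to Hnrnpll were Dck (0.15), BC052040 (0.15) and Mapre2 (0.15), with 0.73 for Hnrnpll. These are descriptions, and the libraries share lanes and differ in depth.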

How the data were processed

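CD8+ T cell RNA was amplified with SMART-Seq v4, made into libraries with Nextera XT, a kit that does not mark strand, and read once from each fragment. Per the labels and the study's methods, the authors aligned reads to mouse mm10 with HISAT2 2.1.0 and counted annotated transcripts with StringTie 2.1.0 (versions from the submitters' processing notes). The deposited gene and transcript tables hold expected counts, that is estimated counts written as whole numbers, so 50-base reads that no join distinguishes were divided by a model. The deposited lane record holds the count of sequenced reads and the lane of each library. A deposited FPKM table and a sample sheet were not used.

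Of 81881 gene entries, 55536 matched GENCODE M21, and the unmatched held 0.0818% of counts. Expression was fitted on the gene counts in R 4.3.3 by edgeR 4.0.16 (filterByExpr, TMM, robust quasi-likelihood fit over all 15 libraries, Benjamini-Hochberg FDR over 17366 genes). Transcript usage was tested with diffSpliceDGE, and shares per library with a two-sided exact permutation test (SciPy 1.17.1). Intervals of a difference invert that test, and Wilson 95% intervals cover counting error only. Both fits were tested on simulated data with known changes. The simulated spread was smaller than that of these data, and transcript switches were simulated in genes with a pair of tested transcripts. Those runs do not show how the usage test behaves for a gene such as Ptprc, with 11. limma 3.58.1 and DESeq2 1.42.0 gave alternatives. The smallest chi-square per degree of freedom between libraries of a group was 5.62, so all pairs differed by more than sampling noise. Alternatives were library totals, no filter on low counts, lane or replicate number as a term, libraries of 1 lane and each library left out. For the shares they were also other denominators and counts divided by transcript length.

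The members, lists and tests were chosen with earlier results of these data known. Named genes are the 3 members, the 3 genes nearest in pattern to each, and of each list at most the 3 members of lowest FDR per comparison, with Lck and the names that define a list given beside them. The genes Has1, Has2, Has3 and Spp1 were named because they could not be tested.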

Additional observations from a re-analysis of the deposited data

Results flagged for a closer look

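In groups of 5 libraries, 9 of 97 groups of values held 1 library farther from the rest than Dixon's 95% limit of 0.71 allows. For independent groups chance gives about 1 in 20. These groups are not independent, since some shares repeat others and the shares of a gene add up to the whole. The same library can thus be flagged in several of them. Ptprc expression in Ag+Costim 4 was 1630 CPM, against 1830 to 1908 in the other 4. The share of Ptprc coding counts with exon 7 was 29.6% in Ag+Costim 3, against 87.6% to 97.9%, and Ptprc-204 held 49.6% of Ptprc counts there, against 1.03% to 4.88%.

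The coding share of Hnrnpll was 89.7% in Naive 2, against 10.5% to 15.6%, and 74.1% in Ag 3, against 10.8% to 28.3%. Hnrnpll-205 held 82.5% in Naive 2 and 0 counts in the other 4 Naive libraries. Hnrnpll-203 held 0.462% in Naive 2, against 66.1% to 75.7%, and 0.803% in Ag 3, against 61.4% to 82.4%. A Cd44 model with 5 of the 10 variant exons held 24.9% of Cd44 counts in Naive 3 and 0 counts in the other Naive libraries. The cause was not tested for any of these values.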

How the results depend on the processing

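Counts below follow the order Ag vs Naive, then Ag+Costim vs Ag, then Ag+Costim vs Naive. By expression 1165, 6 and 7755 genes were called. They were 208, 3 and 4158 without a filter on low counts, which moved the split from 529 higher and 636 lower to 49 and 159 in the first comparison and from 3648 and 4107 to 2409 and 1749 in the last, and 0, 0 and 943 with lane as a term, where 1285 and 2334 genes had an unadjusted p below 0.05 in the first and second. DESeq2 called 2622, 5582 and 9398. Fits of the 10 libraries compared gave 6 and 0 in the first and second comparison, and within lane 2 edgeR called 0 in Ag+Costim vs Ag. Without Ag 3 and Naive 5, chosen after the data were seen, Ag vs Naive gave 3945. Leaving out 1 library gave 255 to 3871, 0 to 3573 and 3892 to 9164 genes. The median of all genes shifted by -0.11, 0.27 and 0.17 (log2) without the filter, and by -0.15 in Ag+Costim vs Naive with library totals.

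Genes called by transcript usage were 41, 70 and 76. The filter left out, edgeR called 236, 220 and 284, and limma called 122, 45 and 626. Fits of the 10 libraries gave 4 and 10 in the comparisons with Ag, and leaving out Ag 3 and Naive 5 gave 89 in Ag vs Naive. Leaving out 1 library gave 46 to 84, 54 to 128 and 76 to 165.

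The correlation of same-numbered deviations ran from -0.32 to 0.47 and exceeded 0.1 in 5 of 15 pairs. Between Naive and Ag it was 0.42, 0.47 and 0.41 for replicates 1, 4 and 5, and -0.12 and -0.32 for replicates 2 and 3. These values do not settle whether replicate numbers pair the libraries. With the replicate block, edgeR called 1660, 0 and 7833 genes, with 4131 at an unadjusted p below 0.05 in Ag+Costim vs Ag, and usage calls were 19, 21 and 67. With the block the Ptprc differences in Ag vs Naive were the same, -43.3 points for any variable exon and -42.6 points for exon 4, with exact p = 0.0625, the smallest it allows, and adjusted p = 0.281.

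Leaving out Ag 3 and Naive 5 gave -39.8 and -38.7 points (exact test, adjusted p = 0.129, the smallest this setting allows). Leaving out 1 library gave -49.8 to -39.2 and -49.0 to -38.5 points. Directions turned for Ptprc in Ag+Costim vs Ag with library totals (log2 -0.0027), for Cd44 there without the filter (0.016) and without Ag 2 (0.0249), and over libraries left out (-0.31 to 0.02), for the Cd44 share there (-1.85 to 1.52 points), for the Hnrnpll coding share in Ag vs Naive (-11.6 to 15.5 points) and for that share in Ag+Costim vs Ag within lane 2 (-4.88 points). The cause was not tested. Under settings other than leaving out 1 library, 75 share values kept their direction and side of the threshold, 8 lost the call and 1 turned. The 8 were Ptprc shares in Ag vs Naive, with the replicate block or without both Ag 3 and Naive 5. Neither of these settings could pass after adjustment, whatever the values. With 1 library left out, 155 kept both, 20 lost the call and 5 turned. The FPKM alternative was not run, since that table names genes and not transcripts.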
